A study of Mus musculus with 15 samples.

Results

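The genes described here are 10 regulators of the G1 phase of the cell cycle: the D-type cyclins Ccnd2 and Ccnd3, their kinases Cdk4 and Cdk6, the E-type cyclins Ccne1 and Ccne2, and the kinase inhibitors Cdkn1a, Cdkn1b, Cdkn2c and Cdkn2d. They were taken by gene symbol, using every probe set annotated to exactly 1 of them, which gave 25 of the 34958 probe sets that name exactly 1 gene, and 10 of 18194 genes. The study measured RNA in mouse spleen lymphocytes before and after a mitogen. Its title concerns c-Myc as an amplifier of gene expression. Each of 5 groups had 3 arrays, 15 in all.

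All mice were of the B6x129 strain, and the cells were splenocytes kept in culture medium. Quiescent B cells (B 0 h) were compared with B cells given 25 ug/ml of lipopolysaccharide, a bacterial cell wall component that activates B cells, for 4 h (B LPS 4 h). Quiescent T cells (T 0 h) were compared with T cells given 7.5 ug/ml of concanavalin A, a plant lectin that activates T cells, for 4 h (T ConA 4 h) or 14 h (T ConA 14 h). No group was cultured for the same time without the mitogen, so the effect of the mitogen and that of culture time cannot be told apart. The labels give neither the age of the mice nor whether the 3 samples of a group came from separate animals or cultures, so the p-values below measure the spread between these samples, which may be technical. From each sample 100 ng of total RNA was labelled. The values are therefore relative to total RNA; RNA per cell was not measured, and in these bulk samples fewer cells of a type and less RNA per cell cannot be told apart.

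A resting lymphocyte waits outside the cell cycle until a mitogen drives it through G1. D-type cyclins accumulate in response to the mitogen, bind Cdk4 or Cdk6, and begin to phosphorylate the retinoblastoma protein, which releases E2F transcription factors. Cyclin E, made under E2F control, then acts with Cdk2 to bring the cell into S phase. The INK4 inhibitors (Cdkn2c, which encodes p18, and Cdkn2d, which encodes p19) bind Cdk4 and Cdk6, whereas the CIP/KIP inhibitors (Cdkn1a, which encodes p21, and Cdkn1b, which encodes p27) act on cyclin-kinase complexes and in particular on those with Cdk2. In lymphocytes p27 is known for its abundance at rest, and Ccnd2 and Ccnd3 for being the main D-type cyclins.

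Promoter sequences were read from RefSeq for build GRCm38.p6, as the 250 bases before each annotated start, and 8 of the 10 genes had such windows, 11 in all. Ccnd2 and Ccne2 had none in the table used. Cdk4 and Cdk6 are shown because both kinases rose in B cells after LPS and in T cells after 14 h of ConA and because their windows hold the E-box CACGTG, a sequence bound by Myc-type factors, in capitals. The Cdk4 window lies at chr10:127063285-127063534 on the plus strand and the Cdk6 window at chr5:3343643-3343892 on the plus strand.
Cdk4: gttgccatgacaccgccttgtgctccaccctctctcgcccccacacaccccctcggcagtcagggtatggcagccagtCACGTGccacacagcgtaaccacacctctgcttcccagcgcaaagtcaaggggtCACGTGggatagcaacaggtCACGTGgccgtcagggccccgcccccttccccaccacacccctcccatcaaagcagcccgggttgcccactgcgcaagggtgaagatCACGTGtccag
Cdk6: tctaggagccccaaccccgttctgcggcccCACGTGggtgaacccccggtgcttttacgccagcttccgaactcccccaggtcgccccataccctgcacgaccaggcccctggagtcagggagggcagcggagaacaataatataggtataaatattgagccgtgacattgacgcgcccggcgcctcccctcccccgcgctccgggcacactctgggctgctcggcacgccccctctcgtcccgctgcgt
Counting the base before the start as -1, the E-boxes of Cdk4 begin at -172, -118, -98 and -11, and that of Cdk6 begins at -220. Among all 32851 promoter windows of this length, 6.02% held at least 1 E-box and 7 windows (0.0213%) held at least 4. Ccnd3 and Cdkn2d are shown as the members whose brightest probe sets ran most closely together after those of Ccnd2 and Cdk6. Both genes fell after each mitogen. The first Ccnd3 window lies at chr17:47504801-47505050 on the plus strand, and the Cdkn2d window at chr9:21291210-21291459 on the minus strand.
Ccnd3: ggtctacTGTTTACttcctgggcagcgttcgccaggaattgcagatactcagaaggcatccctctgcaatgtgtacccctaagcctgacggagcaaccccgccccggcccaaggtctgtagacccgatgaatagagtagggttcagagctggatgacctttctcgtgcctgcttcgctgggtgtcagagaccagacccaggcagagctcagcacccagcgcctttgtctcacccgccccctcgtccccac
Cdkn2d: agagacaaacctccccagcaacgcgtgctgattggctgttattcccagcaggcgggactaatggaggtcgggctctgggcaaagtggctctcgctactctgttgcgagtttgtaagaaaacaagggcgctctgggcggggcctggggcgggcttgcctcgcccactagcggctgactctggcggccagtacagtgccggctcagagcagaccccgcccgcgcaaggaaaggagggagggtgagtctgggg
The capitals in the Ccnd3 window mark a match to the FOXO motif GTAAACA on the opposite strand, beginning at -243. Such a match was present in 3.17% of all windows. The second Ccnd3 window, which is not printed, held no such match. The other motifs searched on both strands were E2F (TTTCCCGC, TTTGGCGC, TTTCGCGC or TTTGCCGC, in 1.86% of windows), CRE (TGACGTCA, 1.55%) and AP-1 (TGAGTCA or TGACTCA, 4.46%), and none of the 11 windows held these letters. No match overlapped another. A match is a description of the letters in the window, since binding was not measured.

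The arrays carried the identities on their labels. In B cell arrays 6 of 7 measured T cell markers (among them Cd3d, Cd3g and Thy1) had group means under a log2 signal of 4, close to the lowest value of the table, 2.24. In T cell arrays at least 3 of 7 B cell markers (Cd79a, Pax5 and Blk) were under 4 in every group. Cd79b had mean log2 signals of 7.65 at T 0 h, 7.11 at T ConA 4 h and 6.90 at T ConA 14 h. In the same order Ms4a1 had 6.08, 7.03 and 6.60, Cd22 had 5.18, 4.96 and 4.80, and Cr2 had 3.09, 6.32 and 2.53. The source of this signal in T cell arrays was not tested. Arrays of 1 group correlated at 0.995 to 0.999. T 0 h replicate 2 and T ConA 4 h replicate 1 stood apart in the difference between 3' and 5' probe sets of a spiked control RNA (dap), at 4.59 and 5.94 on the log2 scale, whereas the other T cell arrays lay between 1.82 and 2.67 and the B cell arrays between 0.90 and 1.44. For actin, a transcript of the cells, the difference was 0.91 on T ConA 4 h replicate 1 and between 0.39 and 0.67 on the other arrays.

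Most of the 10 genes changed in each comparison, and so did most genes on the array. A gene's brightest probe set stood for it, 9045 genes with a highest group mean of at least 5 were fitted with limma over all 15 arrays, and a gene was called at an adjusted p (Benjamini-Hochberg) under 0.05. After LPS in B cells 4 members rose, 5 fell and 1 was not called, where 79.9% of all genes tested changed, 37.6% up and 42.3% down. After 4 h of ConA in T cells 2 members rose and 8 fell, where 65.9% of all genes changed, 33.4% up and 32.5% down. After 14 h 4 rose, 5 fell and 1 was not called against T cells at 0 h, where 68.4% of all genes changed, 36.6% up and 31.9% down. The share of members called was thus close to the background after LPS, and the count that fell at 4 h in T cells was above it. The members' median change was -1.08 at 4 h of ConA and 0.00 over all genes. After LPS it was -0.28, with -0.05 over all genes, and after 14 h of ConA -0.46, with 0.03 over all genes. All 10 members were above the level filter in at least 1 group, as were 22 of their 25 probe sets.

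The size of the changes stood further from the background than their number. The members were chosen with earlier results of these data known, and the part of that choice in the excess was not tested. After LPS 8 of 10 members changed at least 2-fold, as did 42.8% of all genes tested. At 4 h of ConA 6 of 10 did so, with 20.9% of all genes, and at 14 h 5 of 10, with 21.5%. The median absolute log2 change of the members was 1.503 after LPS and 1.40 after 4 h of ConA, compared with 0.81 and 0.43 over all genes. Without the 2 arrays that stood apart, T 0 h replicate 2 and T ConA 4 h replicate 1, the members called were 8 after LPS, 10 at 4 h and 8 at 14 h, where 81.6%, 63.1% and 67.9% of all genes tested were called.

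**Figure D1:**
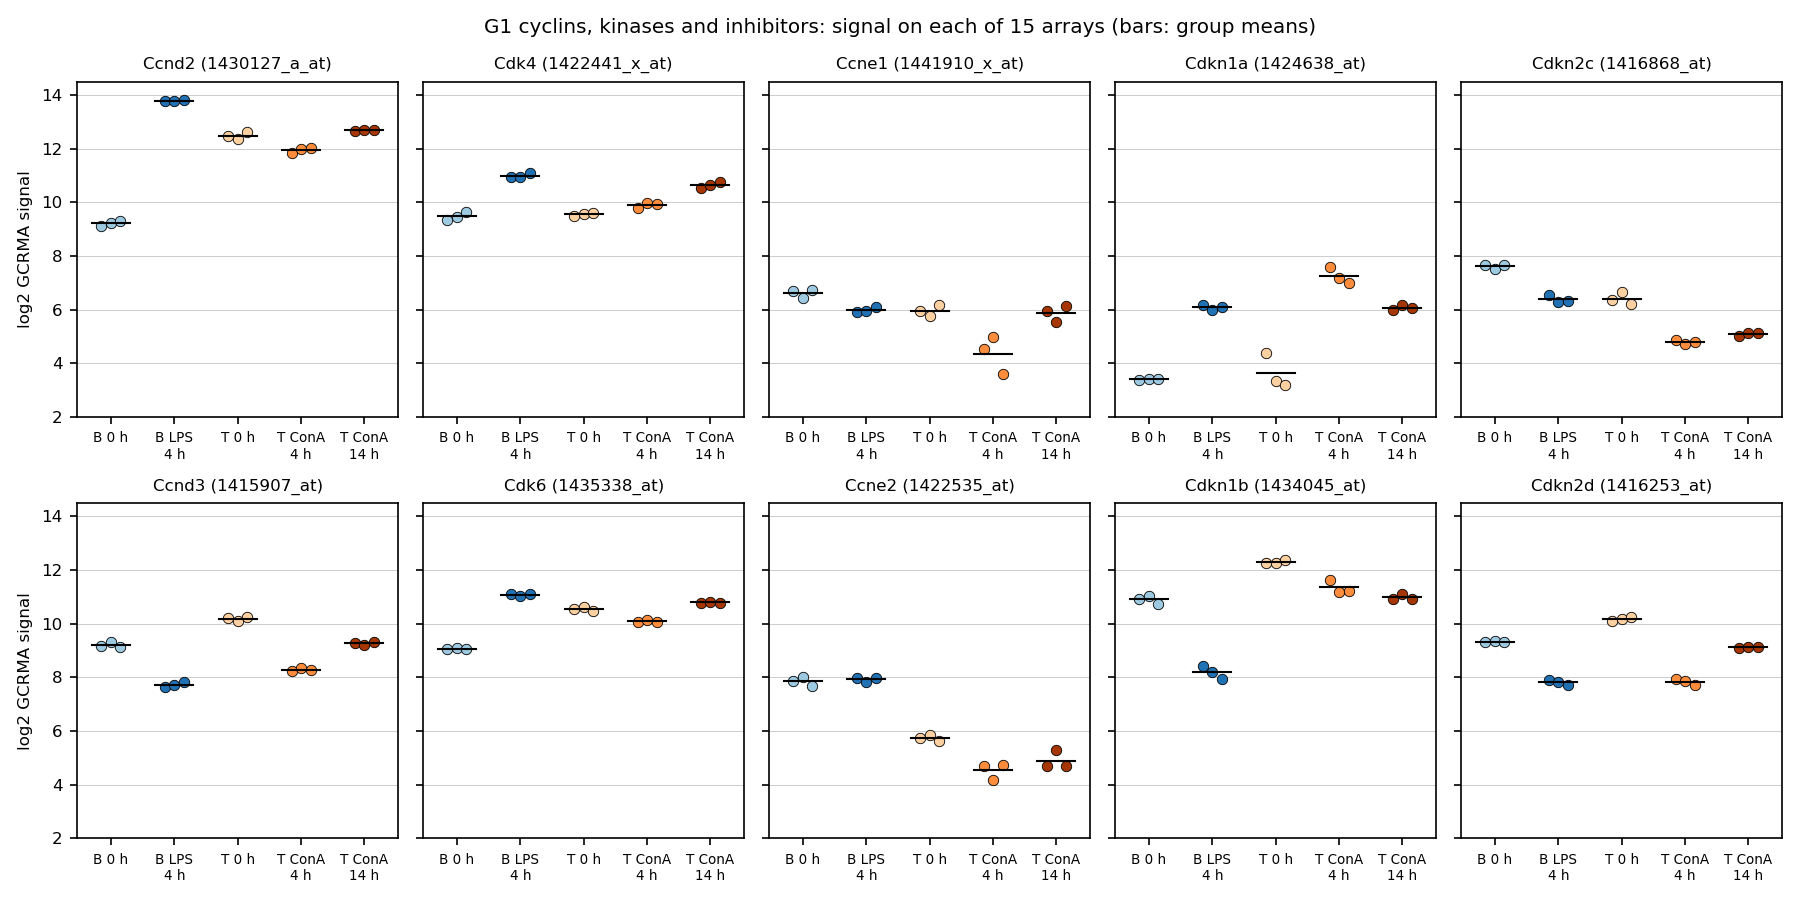
Log2 signal (y axis) of each gene's brightest probe set on each array, by group (x axis). Points are arrays, 3 a group, and horizontal lines are group means. Ccnd2 and Cdk6 have their lowest levels in B 0 h and their highest in B LPS 4 h, and Cdkn1a is under 4.4 on every 0 h array and above 5.9 on every mitogen array. Levels of different genes are not comparable with each other.

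Ccnd2, a D-type cyclin, showed the largest rise of the 10 genes after LPS in B cells. After 4 h of ConA in T cells it fell slightly. Its log2 signals were 9.13, 9.23 and 9.30 in resting B cells and 13.78, 13.79 and 13.79 once LPS was added. The T cell signals were 12.46, 12.36 and 12.63 at 0 h, 11.85, 11.999 and 12.04 at 4 h, and 12.66, 12.68 and 12.70 at 14 h. The B cell groups lay on either side of all T cell arrays, with resting B cells lowest and LPS-treated B cells highest, and no neighbouring groups overlapped. The rise in B cells was 4.57 ± 0.08 (SE) on the log2 scale, a 23.7-fold change (limma, adjusted p = 4.8e-15), and 1.9% of the genes tested changed by at least as much. All 7 Ccnd2 probe sets rose with LPS, by 4.22 to 5.63.

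In T cells Ccnd2 fell by 0.52 ± 0.08 at 4 h (limma, adjusted p = 4.6e-05), with 6 of 7 probe sets called. From 4 h to 14 h it rose by 0.72 ± 0.08 (limma, adjusted p = 6.3e-06), again with 6 of 7 probe sets called. The level at 14 h was 0.19 ± 0.08 above that at 0 h (limma, adjusted p = 0.040). That call lay close to the threshold and was lost after cyclic loess (0.05, limma, adjusted p = 0.60). It was lost without T 0 h replicate 1 (0.18) or replicate 2 (0.13) and without T ConA 14 h replicate 1 (0.21), replicate 2 (0.19) or replicate 3 (0.18), with adjusted p between 0.064 and 0.17, and 4 of 7 probe sets were called.

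Ccnd3, the other D-type cyclin among the 10 genes, fell in both cell types, opposite to Ccnd2 after LPS. Resting B cells gave log2 signals of 9.16, 9.32 and 9.13, and LPS-treated ones 7.65, 7.70 and 7.82. T cells gave 10.21, 10.09 and 10.24 at 0 h, 8.25, 8.35 and 8.28 at 4 h, and 9.30, 9.22 and 9.31 at 14 h. Resting T cells were highest and LPS-treated B cells lowest; T ConA 14 h and B 0 h, next to each other in the order, overlapped. The change was -1.48 ± 0.07 after LPS (limma, adjusted p = 1.8e-10) and -1.89 ± 0.07 after 4 h of ConA (limma, adjusted p = 5.7e-11).

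The 2 Ccnd3 probe sets above the level filter parted between 4 h and 14 h of ConA. The brightest, 1415907_at, rose by 0.98 ± 0.07 (limma over all probe sets, adjusted p = 5.2e-07). The other, 1438805_at, fell by 0.56 ± 0.13 (limma over all probe sets, adjusted p = 0.0037), with log2 signals of 9.21, 9.20 and 9.09 at 4 h and 8.56, 8.68 and 8.59 at 14 h. Within an array the first minus the second was -0.86 ± 0.10 (SD, n = 3) at T 0 h and -0.88 ± 0.07 at 4 h, but 0.67 ± 0.12 at 14 h. B 0 h gave 0.50 ± 0.09 and B LPS 4 h gave 0.68 ± 0.39. The probe sets therefore agreed that Ccnd3 was below its 0 h level at both times in T cells (-0.90 and -2.43 at 14 h), and did not agree on the direction after 4 h. The mean of the probe sets gave 0.14 for that step (limma, adjusted p = 0.057). The third Ccnd3 probe set, 1444323_at, was between 2.24 and 2.83 on all arrays.

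**Figure D2:**
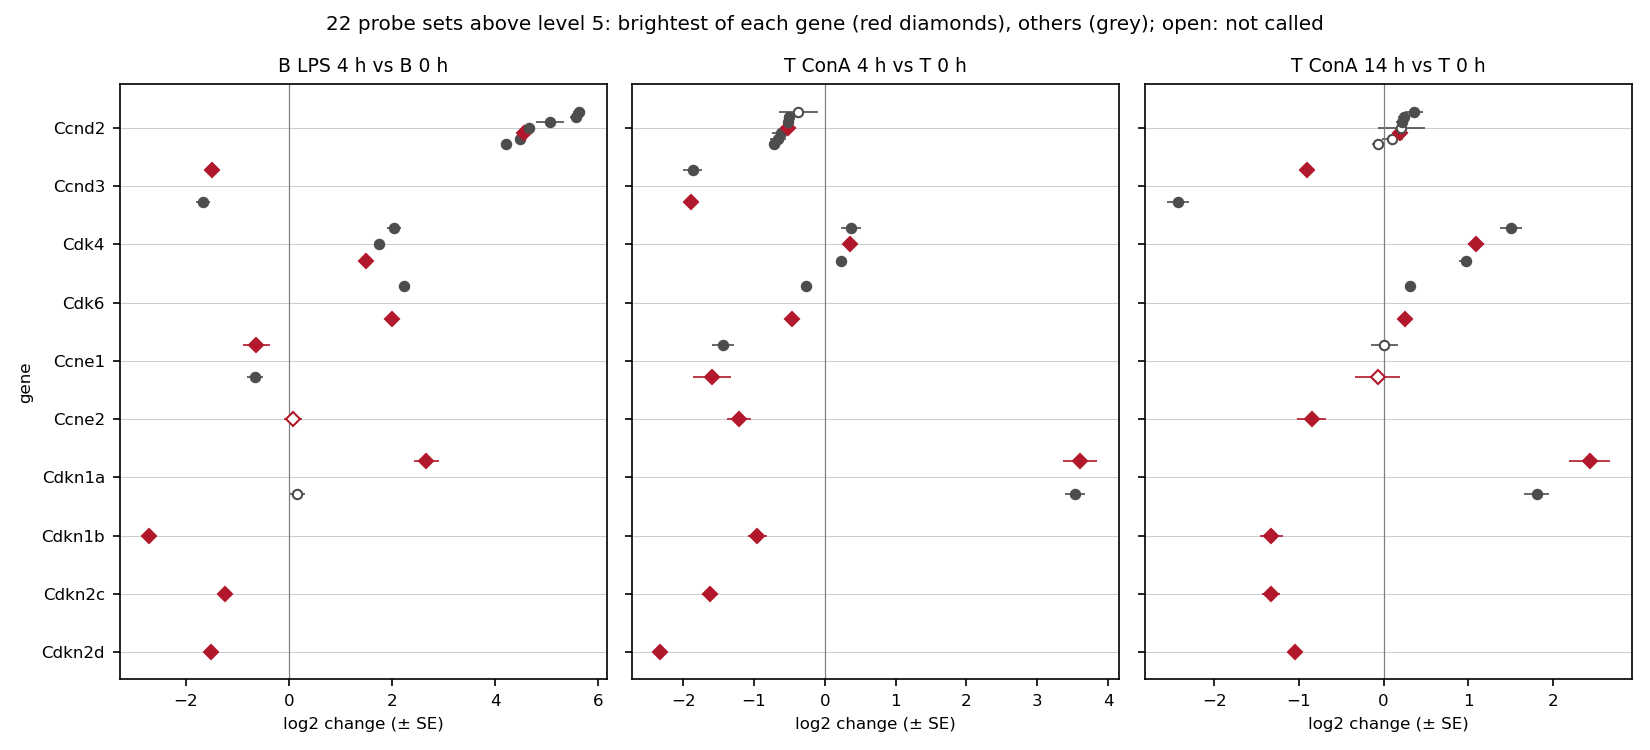
Log2 change (x axis, ± SE from limma over all probe sets) of the 22 member probe sets above the level filter, by gene (y axis) for the 3 mitogen comparisons. Red diamonds are each gene's brightest probe set, grey circles its others, and open symbols were not called. The 7 Ccnd2 probe sets lie between 4.22 and 5.63 after LPS, and Cdkn1a has 1 probe set at 2.67 and 1 at 0.16.

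Cdk4, a kinase partner of the D-type cyclins, rose after both mitogens. On the B cell arrays the log2 signals were 9.35, 9.47 and 9.65 before and 10.93, 10.93 and 11.11 after LPS. On the T cell arrays they were 9.48, 9.56 and 9.59 at 0 h, 9.78, 9.98 and 9.93 at 4 h, and 10.52, 10.64 and 10.74 at 14 h. Every mitogen array was above every 0 h array, and the resting B and T cells overlapped. The rise was 1.499 ± 0.09 after LPS (limma, adjusted p = 1.8e-09), 0.35 ± 0.09 at 4 h of ConA (limma, adjusted p = 0.0038) and 1.09 ± 0.09 at 14 h (limma, adjusted p = 1.5e-07). Cdk4 was the only one of the 10 genes to rise from 0 h to 4 h and again from 4 h to 14 h, the second step being 0.74 ± 0.09 (limma, adjusted p = 2.0e-05), and all 3 of its probe sets were called in the same direction at each step.

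Cdk6, the other kinase of the D-type cyclins, followed Ccnd2. Its log2 signals were 9.05, 9.09 and 9.06 in resting B cells and 11.09, 11.02 and 11.12 once LPS was added. The T cell signals were 10.54, 10.62 and 10.48 at 0 h, 10.06, 10.13 and 10.07 at 4 h, and 10.78, 10.82 and 10.78 at 14 h. The order of the groups was that of Ccnd2, from LPS-treated B cells down through T ConA 14 h, T 0 h and T ConA 4 h to resting B cells, without overlap. Cdk6 rose by 2.01 ± 0.06 after LPS (limma, adjusted p = 7.1e-13), fell by 0.46 ± 0.06 at 4 h of ConA (limma, adjusted p = 1.0e-05) and at 14 h was 0.25 ± 0.06 above 0 h (limma, adjusted p = 0.0018). Both probe sets above the filter gave the same calls. The third, 1460291_at, stayed between 2.24 and 3.09.

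Over the 15 arrays the gene most like Ccnd2 among all those tested was Cdk6 (Pearson r = 0.98), and the gene most like Cdk6 was Ccnd2. The next were Naa15, a subunit of an N-terminal acetyltransferase (0.98 with Ccnd2), and Mrpl22, a mitochondrial ribosomal protein (0.97 with Cdk6). Cdk4 was most like Prdx3, a mitochondrial peroxiredoxin (0.98), and Trmt5, a tRNA methyltransferase (0.98). These correlations describe 15 arrays that fall into 5 groups, so they largely compare group means.

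Ccne1 fell in T cells at 4 h and was back near its 0 h level at 14 h. The log2 signals were 5.96, 5.75 and 6.15 at 0 h, 4.51, 4.96 and 3.60 at 4 h, and 5.96, 5.55 and 6.15 at 14 h. The 4 h arrays were lower than all others, with replicate 3 (3.60) the lowest and the only one under 4, and the 0 h and 14 h arrays overlapped. The fall at 4 h was 1.59 ± 0.26 (limma, adjusted p = 0.00010) and the rise from 4 h to 14 h was 1.53 ± 0.26 (limma, adjusted p = 0.00029), which 2.39% of the genes tested equalled or passed in size. The difference between 14 h and 0 h was -0.07 ± 0.26 (limma, adjusted p = 0.84). The second probe set, 1416492_at, gave -1.44, 1.45 and 0.01 for the same steps. The brightest probe sets of Ccne1 and of Cdk4, 1441910_x_at and 1422441_x_at, are of a type whose probes can also match other sequences.

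In B cells Ccne1 was 6.68, 6.45 and 6.71 at 0 h and 5.91, 5.96 and 6.08 after LPS, without overlap. The change of -0.63 ± 0.26 (limma, adjusted p = 0.038) was not called without B 0 h replicate 1 (-0.60) or 3 (-0.58) or without B LPS 4 h replicate 1 (-0.60), 2 (-0.62) or 3 (-0.68), with adjusted p between 0.054 and 0.093. The call was lost under 11 of 16 alternatives, among them also the replicate block (adjusted p = 0.056), median centring (0.051), cyclic loess (0.059), array weights (0.12) and no filter on level (0.11). The second probe set gave -0.66 ± 0.16 (limma over all probe sets, adjusted p = 0.0019).

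Ccne2, the second cyclin E, was higher in B cells than in T cells in every state. Resting B cells gave log2 signals of 7.88, 8.02 and 7.66, and LPS-treated ones 7.97, 7.84 and 7.99. T cells gave 5.74, 5.85 and 5.64 at 0 h, 4.69, 4.18 and 4.72 at 4 h, and 4.69, 5.29 and 4.70 at 14 h. No T cell array reached the lowest B cell array. Ccne2 was the member not called after LPS, with a change of 0.08 ± 0.17 (limma, adjusted p = 0.69). In T cells it fell by 1.21 ± 0.17 at 4 h (limma, adjusted p = 2.5e-05) and was 0.85 ± 0.17 below 0 h at 14 h (limma, adjusted p = 0.00053), and the 4 h and 14 h arrays overlapped.

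**Figure D3:**
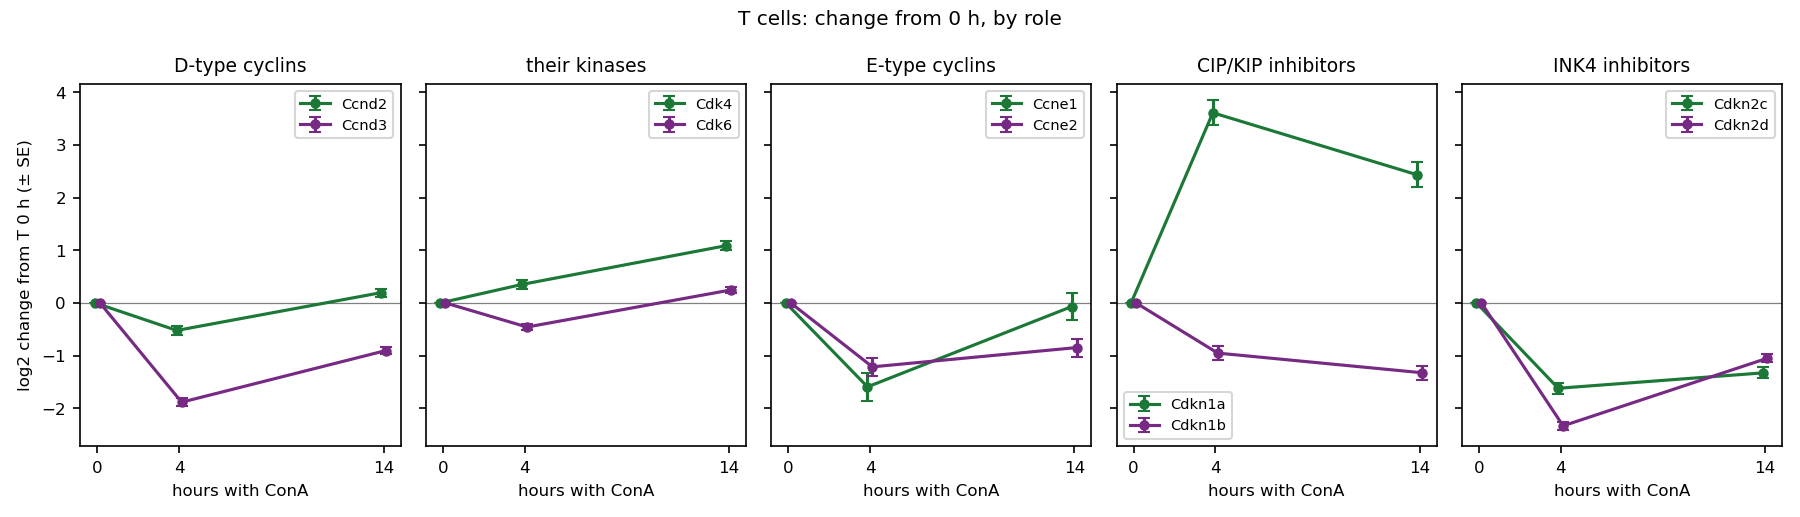
Log2 change from T cells at 0 h (y axis, ± SE from limma) against hours with ConA (x axis), by role; points of a panel are moved slightly apart along the x axis. At 4 h 8 of the 10 genes are below 0, and Cdkn1a (3.61) and Cdk4 (0.35) are above it. From 4 h to 14 h Cdkn1a and Cdkn1b go down and the other 8 go up, 7 of them called. Each gene is shown by its brightest probe set. Another Ccnd3 probe set, 1438805_at, fell over this step (-0.56).

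Cdkn1a, the p21 inhibitor, rose after both mitogens and rose most at 4 h of ConA. On the B cell arrays the log2 signals were 3.39, 3.42 and 3.42 before and 6.17, 5.98 and 6.08 after LPS. On the T cell arrays they were 4.37, 3.35 and 3.20 at 0 h, 7.59, 7.17 and 6.99 at 4 h, and 5.98, 6.18 and 6.06 at 14 h. All 9 mitogen arrays were above all 6 arrays at 0 h. The rises were 2.67 ± 0.23 after LPS (limma, adjusted p = 1.0e-07), 3.61 ± 0.23 at 4 h of ConA (limma, adjusted p = 1.0e-08) and 2.43 ± 0.23 at 14 h (limma, adjusted p = 5.9e-07). Only 1.21% of the genes tested changed as much at 4 h of ConA. Because the 0 h means were under 4, close to the floor, these sizes are compressed.

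From 4 h to 14 h Cdkn1a fell by 1.18 ± 0.23 (limma, adjusted p = 0.00098) and stayed above every array at 0 h. The dimmer probe set, 1421679_a_at, gave the same picture in T cells, at 3.54, 1.81 and -1.73 for the 3 steps, but not in B cells. There it was 2.72, 2.80 and 2.80 at 0 h and 2.80, 3.003 and 3.003 after LPS, a change of 0.16 ± 0.15 (limma over all probe sets, adjusted p = 0.33). These signals are near the floor of the scale, and the rise of Cdkn1a after LPS was called by 1 of its 2 probe sets.

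Cdkn1b, the p27 inhibitor, fell after both mitogens and fell most in B cells. Its log2 signals were 10.93, 11.03 and 10.75 in resting B cells and 8.41, 8.21 and 7.95 once LPS was added. The T cell signals were 12.27, 12.27 and 12.39 at 0 h, 11.64, 11.18 and 11.24 at 4 h, and 10.92, 11.12 and 10.91 at 14 h. Resting T cells were highest, LPS-treated B cells were more than 2 below every other array, and T ConA 14 h overlapped with resting B cells. The change was -2.71 ± 0.13 after LPS (limma, adjusted p = 1.9e-10), -0.95 ± 0.13 at 4 h of ConA (limma, adjusted p = 2.6e-05) and -1.33 ± 0.13 at 14 h (limma, adjusted p = 9.7e-07).

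The further step of Cdkn1b from 4 h to 14 h was -0.37 ± 0.13 (limma, adjusted p = 0.034). It was not called without T ConA 4 h replicate 1 (-0.23), an array that stood apart, or without T ConA 14 h replicate 1 (-0.34) or 3 (-0.34), with adjusted p between 0.097 and 0.15. The other probe set of Cdkn1b, 1419497_at, was at or near its own lowest value in most arrays and under the filter. It was 4.07, 4.54 and 5.49 in resting T cells and at most 4.05 in all other arrays. Over the 15 arrays Cdkn1b was most like Pcnt, a centrosome protein (r = 0.997), and Ccpg1, a receptor of the endoplasmic reticulum (0.99).

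Cdkn2c, the p18 inhibitor of the kinases Cdk4 and Cdk6, fell in all 3 comparisons with 0 h. Resting B cells gave log2 signals of 7.68, 7.52 and 7.66, and LPS-treated ones 6.53, 6.28 and 6.33. T cells gave 6.36, 6.66 and 6.21 at 0 h, 4.87, 4.71 and 4.79 at 4 h, and 5.02, 5.11 and 5.11 at 14 h. Resting B cells were highest, T 0 h and B LPS 4 h overlapped, and the ConA arrays were lowest. The change was -1.24 ± 0.10 after LPS (limma, adjusted p = 6.7e-08), -1.62 ± 0.10 at 4 h of ConA (limma, adjusted p = 1.0e-08) and -1.33 ± 0.10 at 14 h (limma, adjusted p = 8.1e-08). The step from 4 h to 14 h, 0.29 ± 0.10 (limma, adjusted p = 0.033), was not called without T ConA 4 h replicate 2 (0.25) or 3 (0.29) or T ConA 14 h replicate 2 (0.28) or 3 (0.28), with adjusted p between 0.072 and 0.11.

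Cdkn2d, the p19 inhibitor of the same kinases, fell more in T cells at 4 h than any other of the 10 genes and partly came back. On the B cell arrays the log2 signals were 9.31, 9.37 and 9.30 before and 7.92, 7.83 and 7.71 after LPS. On the T cell arrays they were 10.11, 10.16 and 10.25 at 0 h, 7.94, 7.86 and 7.73 at 4 h, and 9.11, 9.13 and 9.14 at 14 h. The arrays of both mitogens at 4 h overlapped at the bottom of the order, and T cells at 14 h lay between them and resting B cells. The change was -1.51 ± 0.07 after LPS (limma, adjusted p = 1.3e-10), -2.33 ± 0.07 at 4 h of ConA (limma, adjusted p = 6.5e-12) and 1.28 ± 0.07 from 4 h to 14 h (limma, adjusted p = 1.7e-08).

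Among the members Cdkn2d ran with Ccnd3 on its brightest probe set (r = 0.97 over 15 arrays), and each of them was highest in resting T cells. The other Ccnd3 probe set, 1438805_at, was also highest there. It parted from Cdkn2d between 4 h and 14 h of ConA (-0.56, where Cdkn2d rose by 1.28), and its correlation with Cdkn2d was not computed. Outside the members Ccnd3 was most like Haus4, a subunit of the augmin complex of the spindle (0.98), and Kiz, a centrosome protein (0.98). Cdkn2d was most like Tex9 (0.98). Cdkn2c was most like Prkcb, a protein kinase C isoform (0.99), and Tk1, a thymidine kinase (0.99), and Ccne2 like Dennd3 (0.99) and Grn, the progranulin gene (0.98). Cdkn1a was most like the kinase gene Jak2 (0.98) and Hccs, a mitochondrial haem lyase (0.97), and Ccne1, less closely, like the ribosomal protein gene Rpl10a (0.95) and Cd52 (0.92).

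From 4 h to 14 h of ConA 7 members rose, 2 fell and 1 (Ccne2, 0.37 ± 0.17, limma, adjusted p = 0.091) was not called, where 48.9% of all genes tested changed, 27.4% up and 21.5% down. The 7 include Ccnd3 by its brightest probe set, whereas its probe set 1438805_at fell (-0.56). The members' median change over this step was 0.71, and 0.02 over all genes. Of the 8 genes that had fallen at 4 h, Ccnd2, Cdk6 and Ccne1 reached or passed their 0 h mean or came within 0.07 of it, Ccnd3 and Cdkn2d came back in part on their brightest probe sets, and Ccne2, Cdkn1b and Cdkn2c were still below it (-0.85, -1.33 and -1.33). The comparisons of 4 h and 14 h with 0 h share the T 0 h arrays, and both share arrays with the step between them.

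Resting B and T cells differed in 8 of the 10 genes, where 76.6% of all genes tested differed, 25.5% higher in B cells and 51.1% lower. Ccne2 (2.11 ± 0.17), Cdkn2c (1.21 ± 0.10) and Ccne1 (0.66 ± 0.26) were higher in B cells. Ccnd2 (-3.27 ± 0.08), Cdk6 (-1.48 ± 0.06), Cdkn1b (-1.40 ± 0.13), Ccnd3 (-0.97 ± 0.07) and Cdkn2d (-0.85 ± 0.07) were lower in B cells. Cdk4 (-0.06 ± 0.09) and Cdkn1a (-0.23 ± 0.23) were not called. The Cdk4 value comes from 1422441_x_at, and the other 2 Cdk4 probe sets were lower in B cells (-0.62 and -0.36) and were called, and the dimmer Cdkn1a probe set was higher (0.52 ± 0.15) with both groups near the floor. The Ccne1 difference was not called without B 0 h replicate 1 (0.63) or 3 (0.61) or T 0 h replicate 1 (0.66) or 2 (0.56).

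The median of all genes in this comparison was -0.27, and it was -0.37 with arrays centred on their medians and -0.13 after cyclic loess. The signs of the 8 differences held under both, and Ccne1 was not called after median centring (0.56, limma, adjusted p = 0.062). Markers of other cells also differed between the resting groups, where 25.5% of all genes tested were higher in B cells and 51.1% lower. Of 11 erythroid progenitor markers tested 9 were higher in B cells, of 9 G2/M genes 8, and of 7 macrophage markers 7. The summed linear signal of the erythroid list was 23179 to 24293 in B 0 h and 7514 to 7700 in T 0 h, with Alas2 and Slc4a1 near the floor in T 0 h. The sum of the G2/M list was 6008 to 6233 and 1534 to 1719, with no gene near the floor. The sum of the macrophage list was 7315 to 7720 and 258 to 370, with Csf1r, Adgre1, Cd14, Spic and Vcam1 near the floor in T 0 h. Natural killer cell markers went the other way, with 4 of 4 lower in B cells and a sum over 5 of 136 to 156 in B 0 h and 7551 to 7743 in T 0 h. Ncr1, Nkg7 and Eomes were near the floor in B 0 h, and Ncr1 in T 0 h. The part of these markers in the members' differences was not tested.

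After 4 h with their mitogens the B cells were higher than the T cells in 6 members, lower in 3 and not called for 1, where 78% of all genes tested differed, 27.9% higher and 50.1% lower. Ccnd2 and Cdk6, both lower in B cells at rest, were now higher, by 1.83 ± 0.08 and 0.99 ± 0.06. Ccne2 was 3.40 ± 0.17 higher, Ccne1 1.62 ± 0.26, Cdkn2c 1.59 ± 0.10 and Cdk4 1.09 ± 0.09. Cdkn1b was lower in B cells (-3.16 ± 0.13), as were Cdkn1a (-1.17 ± 0.23) and Ccnd3 (-0.57 ± 0.07). Cdkn2d did not differ by the test (-0.02 ± 0.07, limma, adjusted p = 0.77). The median of all genes was -0.26 here. Markers of other cells differed here too, with 8 of 9 G2/M genes, 9 of 11 erythroid and 5 of 7 macrophage markers higher in B cells and 4 of 4 natural killer cell and 3 of 3 neutrophil markers lower. Their part in the members' differences was not tested.

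The responses at 4 h were compared directly by the interaction, the LPS response of B cells minus the ConA response of T cells. It was called for all 10 members, 8 above 0 and 2 below, where 66.1% of all genes tested were called, 31.3% above 0 and 34.8% below. Ccnd2 had the largest value, 5.09 ± 0.11 (limma, adjusted p = 1.4e-13), which 0.984% of the genes tested equalled or passed in size, and Cdk6 followed with 2.47 ± 0.08 (limma, adjusted p = 1.3e-11). For these genes the responses had opposite signs. Ccne2 (1.29 ± 0.24), Cdk4 (1.15 ± 0.13), Ccne1 (0.96 ± 0.37), Cdkn2d (0.83 ± 0.10), Ccnd3 (0.40 ± 0.10) and Cdkn2c (0.38 ± 0.15) were also above 0. Cdkn1b (-1.76 ± 0.19) fell more in B cells, and Cdkn1a (-0.94 ± 0.33) rose less in B cells. The agents differ between the cell types, so cell type and mitogen cannot be told apart in this comparison.

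Some of the smaller interactions lay close to the threshold. Their calls were lost when single arrays were left out, in some cases with hardly any change in size. Cdkn1a was not called without T 0 h replicate 2 (-0.80) or 3 (-0.73) or T ConA 4 h replicate 1 (-0.77), and its other probe set gave -3.38 ± 0.21 (limma over all probe sets, adjusted p = 1.3e-08). The Cdkn1a value without both arrays that stood apart was -0.63 (limma, adjusted p = 0.13). The Ccne1 interaction was smallest without T ConA 4 h replicate 3, at 0.58 (limma, adjusted p = 0.0499). It was not called without B 0 h replicate 2 (0.88), B LPS 4 h replicate 3 (0.91) or T 0 h replicate 1 (0.96) or 3 (0.86). Cdkn2c was not called without B 0 h replicate 2 (0.33), B LPS 4 h replicate 1 (0.31), T 0 h replicate 2 (0.26) or T ConA 4 h replicate 2 (0.34) or 3 (0.38). For Ccnd3 the second probe set was not called (0.21 ± 0.18, limma over all probe sets, adjusted p = 0.34).

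**Figure D4:**
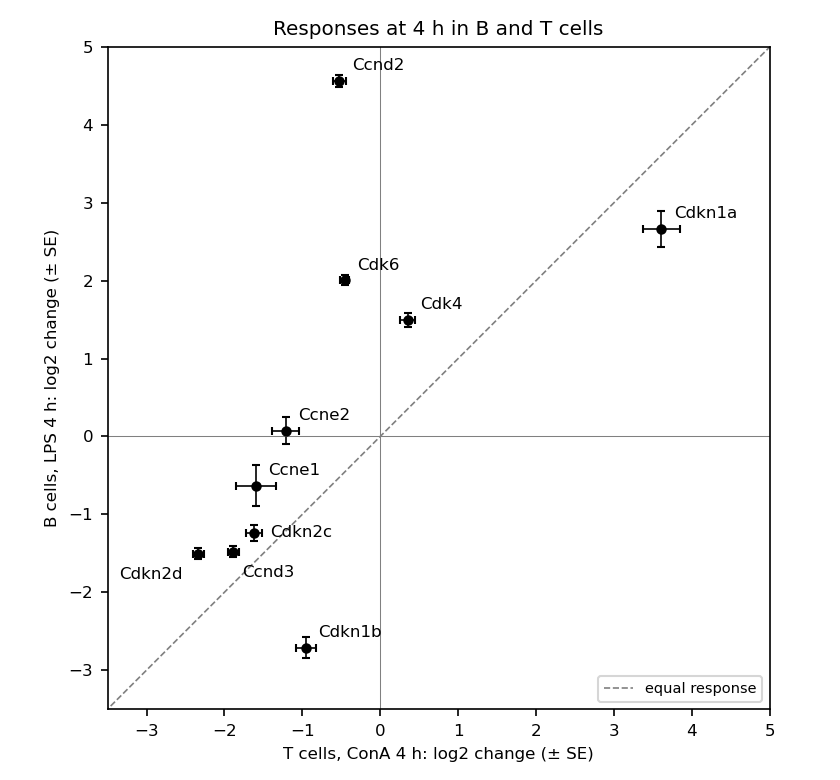
Log2 change after LPS in B cells (y axis) against log2 change after 4 h of ConA in T cells (x axis), ± SE from limma, 1 point a gene; the dashed line marks equal responses. Cdkn1a (3.61, 2.67) and Cdkn1b (-0.95, -2.71) lie below the line and the other 8 above it, Ccnd2 (-0.52, 4.57) farthest.

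Other genes of the retinoblastoma and E2F pathway were counted from a list of 41, of which 36 were above the level filter; E2f1, E2f4, E2f7, Cdkn1c and Cdkn2b were below it. After LPS 12 rose, 14 fell and 10 were not called, where 37.6% of all genes tested rose and 42.3% fell. Rbl2, a pocket protein related to the retinoblastoma protein, had the largest fall (-4.01 ± 0.17), then Ccnd1, the third D-type cyclin (-2.23 ± 0.14), and Ccni, an atypical cyclin (-1.75 ± 0.10). Fbxo31, an F-box protein (1.64 ± 0.13), Tfdp1, the partner of E2F proteins (1.56 ± 0.13), and Cdc34, a ubiquitin-conjugating enzyme (1.47 ± 0.09), had the largest rises.

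At 4 h of ConA 8 of these 36 genes rose, 14 fell and 14 were not called. Of all genes tested 33.4% rose and 32.5% fell there. The falls were largest for E2f2 (-2.995 ± 0.20), an activating E2F, E2f8 (-2.84 ± 0.19), a repressive E2F, and Ccna2, the S-phase cyclin A (-1.28 ± 0.07), and the rises for Ddb1 (0.83 ± 0.10), a ubiquitin ligase adaptor, E2f5 (0.77 ± 0.15) and Cdc34 (0.59 ± 0.09). At 14 h 14 rose, 8 fell and 14 were not called, where 36.6% of all genes rose and 31.9% fell. E2f2 (-2.98 ± 0.20), E2f8 (-2.81 ± 0.19) and Ccna2 (-2.22 ± 0.07) again had the largest falls, with E2f8 under 4 at both times. The largest rises were those of Tfdp1 (1.03 ± 0.13), Cks1b (0.80 ± 0.07), a kinase subunit needed for p27 destruction, and Fbxo4 (0.78 ± 0.13), an F-box protein. The median change of the 36 genes was -0.01 after LPS, -0.10 at 4 h and 0.08 at 14 h of ConA, next to -0.05, 0.00 and 0.03 over all genes. Between 4 h and 14 h 15 rose and 3 fell, where 27.4% of all genes rose and 21.5% fell, and the median was 0.12 next to 0.02 over all genes. Between resting B and T cells 13 were higher and 15 lower in B cells, where 25.5% of all genes were higher and 51.1% lower, with medians of -0.05 and -0.27. Between the cells at 4 h 14 were higher and 13 lower in B cells, where 27.9% of all genes were higher and 50.1% lower, with medians of 0.08 and -0.26. In the interaction 11 were above 0 and 9 below, where 31.3% of all genes were above and 34.8% below, with medians of 0.11 and -0.03.

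Genes of dividing cells and of other cell types moved in the same comparisons. Over all genes tested 37.6% rose and 42.3% fell after LPS. At 4 h of ConA 33.4% rose and 32.5% fell, and at 14 h 36.6% rose and 31.9% fell. Of 9 G2/M genes tested 9 fell after LPS, 8 at 4 h of ConA and 9 at 14 h. Their summed linear signal lay between 3072 and 3198 after LPS, below the range given for B 0 h. It lay between 585 and 627 at 4 h and between 418 and 472 at 14 h, below that of T 0 h, and in both Aurkb and Cenpe were near the floor. Of 11 erythroid progenitor markers 10 fell after LPS, 9 at 4 h and 9 at 14 h. Their sum lay between 15366 and 16085 after LPS and, in T cells, between 5134 and 5298 at 4 h, each below its 0 h range, with 6 of 11 near the floor in T ConA 4 h, among them Klf1 and Alas2, and none in B LPS 4 h. Much of these sums came from Tfrc, the transferrin receptor gene and the 1 listed marker that rose (12.16 to 12.90 in B cells, 10.04 to 12.17 at 4 h in T cells, as mean log2 signals). Without it the sum over the other 10 was 18423 to 19700 in B 0 h and 7585 to 8239 in B LPS 4 h, and 6498 to 6633 in T 0 h, 611 to 639 at 4 h and 314 to 353 at 14 h. Their part in the falls of Ccne1, Ccne2 and Cdkn2c was not tested.

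The counts below stand next to the same shares over all genes. Of 7 macrophage and monocyte markers tested 6 fell after LPS. The sum over the list's 8 genes lay between 2881 and 3423, below its B 0 h range, with Csf1r, Adgre1 and Cd14 near the floor after LPS. Mpeg1, with mean log2 signals of 11.15 before and 11.48 after LPS, gave most of that sum, and the other 7 summed to 5052 to 5273 before and 167 to 243 after. Of 3 neutrophil markers tested 2 rose at 4 h of ConA (S100a8 and S100a9) and 1 fell (Mpo, mean log2 signal 5.72 to 4.33). At 14 h 3 fell. The sum of the 5 measured was 293 to 359 in T 0 h, 1409 to 2007 at 4 h and 49.8 to 58.7 at 14 h, with Elane and Camp near the floor in all 3 groups. Of 4 natural killer cell markers 3 fell at 4 h and 3 at 14 h, and the sum over 5 was 7551 to 7743 in T 0 h, 2970 to 3473 at 4 h and 3462 to 3662 at 14 h, with Ncr1 near the floor throughout. Of 3 dendritic cell markers tested 2 rose after LPS (Flt3 and Zbtb46) and 1 fell (Itgax, mean log2 signal 6.08 to 2.34). The sum over 5 was 132 to 154 in B 0 h and 808 to 1047 in B LPS 4 h, with Itgax, Siglech and Xcr1 near the floor after LPS. Of 7 B cell markers 7 fell after LPS (sum 87706 to 91603, then 22441 to 27037), and of 7 T cell markers 5 fell at 4 h of ConA (sum 39270 to 41262, then 23815 to 27522) and 5 at 14 h, with none near the floor in its own cell type. The part of these shifts in the members' changes was not tested.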

How the data were processed

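Array values were deposited by the authors as log2 signals of 45101 probe sets on 15 Affymetrix arrays, processed with GCRMA per the submitters' processing notes (version not given in the sources used here), which corrects background and puts arrays on a common scale. The lowest value is 2.24, and 39.2% of values are at it, so changes from near the floor are compressed. The array number (3 a group) limits the precision; per-array medians were 2.42 to 2.57.

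Probe sets with exactly 1 gene in the platform annotation (34958) were kept, 932 with several genes and 9211 with none were not named. The brightest probe set stood for each gene. Genes with a highest group mean of at least 5 (9045 of 18194) were fitted with limma 3.58.1 in R 4.3.3 as 5 group means over all 15 arrays (10 residual degrees of freedom), with Benjamini-Hochberg adjustment over all genes and calls at 0.05. A second fit took 16238 probe sets singly. The script was tested on simulated data. Named are all members, up to 3 changed pathway genes a direction in the mitogen comparisons, and the 2 genes most like each member, of which 1 is not reported here. Members and lists were chosen with earlier results of these data known. Alternatives covered array scaling, the level filter, the variance prior, the arrays fitted, array weights, a replicate block and single arrays left out. Others took the mean of a gene's probe sets, or its brightest probe set from the fit of single probe sets. Same-numbered arrays of 2 groups had deviation correlations of -0.46 to 0.24, with 3 of 30 over 0.1, so the numbers were not taken to pair the samples.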

Additional observations from a re-analysis of the deposited data

Results flagged for a closer look

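For each of the 10 genes the response to LPS in B cells and the response to 4 h of ConA in T cells differed by a test of the difference itself (limma interaction, B minus T, log2). The values were 5.09 for Ccnd2, 2.47 for Cdk6, 1.29 for Ccne2, 1.15 for Cdk4, 0.96 for Ccne1, 0.83 for Cdkn2d, 0.40 for Ccnd3, 0.38 for Cdkn2c, -0.94 for Cdkn1a and -1.76 for Cdkn1b. Of all genes tested 66.1% passed the same test. Ccne1, Cdkn1a and Cdkn2c had the largest adjusted p (0.033, 0.022 and 0.035). Groups of 3 arrays are too small for the test of single outlying arrays.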

How the results depend on the processing

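Of 70 changes (10 genes in 7 comparisons) 59 kept their side of the threshold under every alternative run, 11 lost or gained a call under at least 1, and none reversed a call. No alternative put another probe set in place of a gene's brightest, so these counts do not cover that choice. The other Ccnd3 probe set, 1438805_at, fell from 4 h to 14 h of ConA (-0.56, limma over all probe sets, adjusted p = 0.0037), where the brightest rose. The dimmer Cdkn1a probe set was not called after LPS (0.16, limma over all probe sets, adjusted p = 0.33). The sign of 5 changes that were not called turned under at least 1 alternative: Ccne2 after LPS, Ccne1 at 14 h against 0 h, Cdk4 and Cdkn1a between resting cells, and Cdkn2d between cells at 4 h. The count of members called stayed between 8 and 9 after LPS (9 as reported), 9 and 10 at 4 h of ConA (10), 8 and 9 at 14 h (9), 7 and 9 from 4 h to 14 h (9), 7 and 9 between resting cells (8), 8 and 9 between cells at 4 h (9), and 7 and 10 in the interaction (10). With the replicate block it was 8 after LPS and 9 in the interaction, Ccne1 being lost in both (adjusted p 0.056 and 0.050), and the block changed no other call of a member. With a minimum level of 7 Ccne1 was not tested, and with only the arrays compared Ccne2 from 4 h to 14 h and Cdkn1a between resting cells were not. Cyclic loess took the rise of Ccnd2 at 14 h to 0.05 (adjusted p = 0.60). Array weights took the Cdkn1a interaction to -0.51 (adjusted p = 0.21). The mean of a gene's probe sets moved 11 called values of Ccnd3, Cdk6, Cdkn1a and Cdkn1b by over 1.5 times, among them the rise of Cdkn1a after LPS (1.41) and the fall of Cdkn1b (-1.36), and took the Cdkn1b interaction to -0.19 (adjusted p = 0.45) and its step from 4 h to 14 h to -0.06 (adjusted p = 0.77), with the dim probe set near its floor, and made Cdk4 lower in resting B than T cells (-0.34, adjusted p = 0.0013). The means of Cdk6 and Ccnd3 also include a probe set near the floor on all arrays. These are 1460291_at (2.24 to 3.09) and 1444323_at (2.24 to 2.83). The cause of the changes under the other alternatives was not tested. Signal over the floor limits Cdkn1a at 0 h.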
